A study of Homo sapiens with 12 samples.

Results

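Prostaglandins are lipid messengers, and 10 genes that make them, sense them and break them down were followed here: PLA2G4A, PTGS1, PTGS2, PTGES, PTGES2, PTGES3, PTGIS, PTGER2, PTGER4 and HPGD. They were picked by symbol from the 58721 genes of the count table, and all 10 had enough counts to be among the 21013 genes tested. RNA was sequenced from EW8 and TC71, established lines of Ewing sarcoma, a bone and soft tissue tumour driven by the EWS-FLI1 fusion. Both lines carried the same lentiviral pair of constructs, a TRE3G promoter that drives c-Jun and c-Fos from 1 transcript, and a Tet-On 3G transactivator under the human EF1 alpha promoter. The cells of each line received either DMSO (vehicle) or doxycycline at 2000 ng/ml, in both cases for 72 h, which made 4 groups of 3 libraries: EW8 vehicle, EW8 doxycycline, TC71 vehicle and TC71 doxycycline. The vehicle cells therefore held the constructs too, the genotype was labelled WT in every group, and whether a transduced line was a pool or 1 clone is not given in the sources used here. No library of cells with doxycycline but without c-Jun and c-Fos was used, so an action of the drug itself and that of the induced proteins cannot be told apart.

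In outline, cytosolic phospholipase A2 frees arachidonic acid from membranes, the cyclooxygenases PTGS1 and PTGS2 turn it into prostaglandin H2, and terminal synthases convert this into prostaglandin E2 (PTGES, PTGES2, PTGES3) or prostacyclin (PTGIS). Prostaglandin E2 acts on the receptors EP1 to EP4, of which EP2 (PTGER2) and EP4 (PTGER4) raise cyclic AMP, and HPGD starts its breakdown. PTGS2 is a classic inducible gene of inflammation and growth signalling, and c-Jun and c-Fos, which form the transcription factor AP-1, are textbook regulators of it. In the libraries below, PTGS2 and PTGER2 rose with doxycycline in both lines, PTGES rose in EW8, PTGS1 was called higher in TC71 at counts near the floor, and HPGD fell in EW8. The EW8 calls of PTGER2 and HPGD rested on single libraries, and the EW8 libraries of HPGD overlapped.

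The promoters of the 3 members that rose in at least 1 line by more than a few counts are shown first, because these are the members the results turn on and c-Jun and c-Fos bind DNA. Each is the 250 bases before the RefSeq start site (GRCh38.p14), 5′ to 3′ on the strand of the gene, and capitals mark letters found by the motif search. They lie at chr1:186680424-186680673 on the minus strand for PTGS2, at chr14:52314062-52314311 on the plus strand for PTGER2, and at chr9:129753043-129753292 on the minus strand for PTGES.
PTGS2: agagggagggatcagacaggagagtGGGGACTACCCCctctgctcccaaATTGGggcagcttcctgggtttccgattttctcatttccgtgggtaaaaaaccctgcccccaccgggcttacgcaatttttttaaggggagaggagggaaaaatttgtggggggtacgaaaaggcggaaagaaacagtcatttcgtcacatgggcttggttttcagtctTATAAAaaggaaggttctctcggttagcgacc
PTGER2: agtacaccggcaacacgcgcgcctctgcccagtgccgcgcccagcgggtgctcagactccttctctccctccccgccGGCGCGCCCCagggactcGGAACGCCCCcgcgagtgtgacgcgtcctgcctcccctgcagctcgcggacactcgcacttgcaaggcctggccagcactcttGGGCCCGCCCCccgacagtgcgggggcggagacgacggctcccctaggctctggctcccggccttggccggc
PTGES: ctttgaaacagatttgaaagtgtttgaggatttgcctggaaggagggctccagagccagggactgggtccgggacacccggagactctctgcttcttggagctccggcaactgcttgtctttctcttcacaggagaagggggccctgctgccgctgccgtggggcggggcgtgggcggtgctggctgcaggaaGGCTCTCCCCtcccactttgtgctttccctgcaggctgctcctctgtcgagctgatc
The PTGS2 window had a TATA box (TATAAA) 32 to 27 bases before the start, a CCAAT on the opposite strand 201 to 197 bases before it, and a run of overlapping NF-kB letters (GGG and CC with any 5 bases between them, on either strand) between 225 and 214 bases before it. The PTGER2 and PTGES windows had NF-kB letters only, and 74.0% and 61.2% of their bases were G or C, against 50.4% in PTGS2. Of 35116 RefSeq windows of the same length, 10.7% held TATAAA, 32.0% held CCAAT and 54.4% held the NF-kB letters. The AP-1 letters TGANTCA stood in 6.57% of all windows and in none of the 13 windows found for 9 of the 10 members, which says only that these letters are not in those 250 bases. The same held for the cyclic AMP response element TGACGTCA (1.65% of all windows), which contains the core TGACGT (7.1%), also not found in the 13. Only these exact letters were searched, so a site of either kind that departs from them would be missed. GGAAGGAA, the repeat that EWS-FLI1 is known to bind, stood in 3.06% of all windows and in 1 of the 13, at PTGES2, and the E-box CACGTG stood in 6.34% and also in 1 of the 13, again at PTGES2. No RefSeq window was found for PTGIS.

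The induction was checked before the members. JUN went from 21.6 ± 2.61 to 473.7 ± 44.8 CPM (counts scaled to a common library size with TMM factors, mean ± SD, n = 3) in EW8 and from 20.7 ± 4.01 to 755.5 ± 54.6 CPM in TC71, and FOS rose by 4.87 and 7.08 on the log2 scale. Transgene and endogenous reads of JUN and FOS were not told apart. Libraries held 42860665 to 60853649 counts, and all 8 Ewing sarcoma markers were above the floor of 6 counts in every group. Their levels were not constant. In EW8, LIPI ranged from 43.9 to 50.2 CPM under vehicle and from 16.3 to 20.4 CPM under doxycycline. CD99 went the other way, from 792.7 to 825.4 CPM to between 1230 and 1256 CPM. The floor of 6 counts, 3 read pairs, was 0.0966 to 0.145 CPM, depending on the library, and covers counting error only. TC71 vehicle replicate 1 stood apart from its replicates, with a chi-square per gene of 58.9 and 56.1 against the other TC71 vehicle libraries, where other replicate pairs gave 5.2 to 10.2. Calls of the members that change without it are therefore named, while such changes among the other eicosanoid genes are named only in part. A gene was called where edgeR's quasi-likelihood test gave a Benjamini-Hochberg adjusted p under 0.05 and the log2 fold change passed 1 in either direction, and "rose" and "fell" are used only for such calls. The labels do not say that replicates came from separate cultures, so p-values measure the spread between these libraries, and in bulk RNA fewer cells with a transcript and less of it per cell cannot be told apart.

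In EW8, 3 of the 10 members were called higher (PTGS2, PTGES, PTGER2), beside 11.4% of all genes tested, and 1 was called lower (HPGD), beside 3.38% (14.8% in either direction). In TC71, 3 were called higher (PTGS1, PTGS2, PTGER2), beside 12.3%, and 0 lower, beside 3.67% (16% in either direction), while 2 members with adjusted p under 0.05 lay below the fold limit. DESeq2 also called 0 lower in TC71, and 5 members had an unadjusted p under 0.05 in the edgeR fit, counting both directions. The median log2 fold change of the members was 0.27 in EW8, against -0.031 over all genes tested, and 0.33 in TC71 over the 8 members with counts above the floor or bounded by it, against 0.0. Without TC71 vehicle replicate 1, EW8 had 4 members called higher, with PTGER4 as the addition, and the other counts of members were as given. The difference of the 2 responses was called for 2 members, PTGS1 (higher in TC71, beside 4.18% of genes) and PTGES (lower in TC71, beside 2.87%), where 7.05% of genes were called in either direction.

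**Figure D1:**
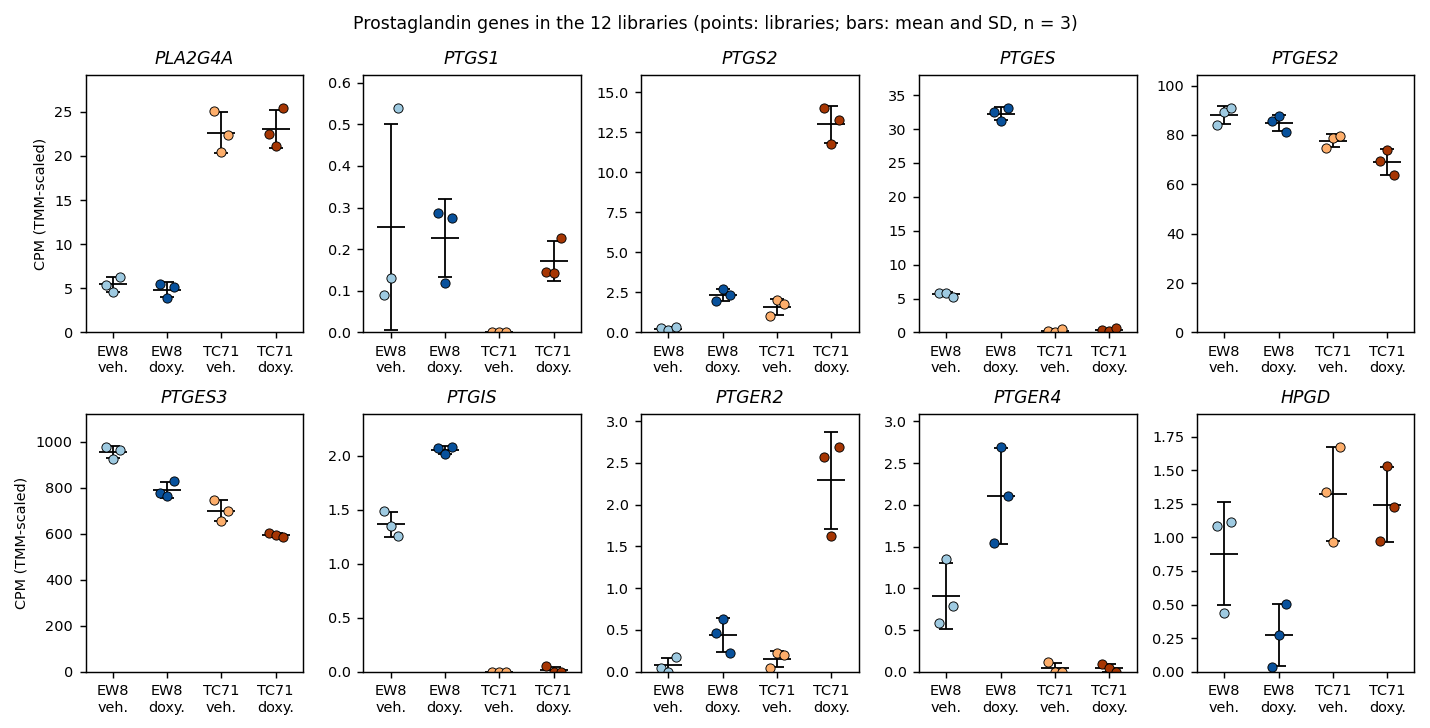
Level of each of the 10 genes in CPM (linear axis from 0, its own scale in each panel) in the 12 libraries, with points for libraries and bars for the mean and SD of 3 libraries. PTGS2 and PTGER2 were higher with doxycycline in both lines, PTGES only moved above its vehicle range in EW8, and PTGIS and PTGER4 were at or near 0 in TC71.

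PLA2G4A (ENSG00000116711.9, hg38 chr1:186828953-186988981, plus strand) encodes the cytosolic phospholipase A2 that prefers arachidonate. Its 3 EW8 vehicle libraries had 5.413, 4.598 and 6.323 CPM and the EW8 doxycycline libraries 5.46, 3.87 and 5.16 CPM. The TC71 vehicle libraries had 25.1, 20.5 and 22.3 CPM and the TC71 doxycycline libraries 22.5, 21.2 and 25.4 CPM. The ranges with and without doxycycline overlapped in both lines, with log2 fold changes of -0.18 ± 0.15 (SE) in EW8 and 0.03 ± 0.14 in TC71, and these changed sign, the first without single libraries and the second also under another scaling. Every TC71 library was above every EW8 library. The level was 4.15-fold higher in TC71 than in EW8 under vehicle (log2 2.05 ± 0.15, edgeR adjusted p = 8.14e-10) and 4.77-fold higher under doxycycline (adjusted p = 2.59e-10).

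PTGS2 (ENSG00000073756.11, chr1:186671791-186680427, minus strand), the inducible cyclooxygenase, was called in both lines in every alternative fit, and it lies 149 kb from PLA2G4A on the same chromosome. The EW8 vehicle libraries had 12, 6 and 18 counts (0.271, 0.131 and 0.323 CPM) and the EW8 doxycycline libraries 110, 138 and 102 counts (1.97, 2.73 and 2.33 CPM). The TC71 vehicle libraries had 52, 124 and 90 counts (0.993, 2.00 and 1.75 CPM) and the TC71 doxycycline libraries 578, 492 and 582 counts (14.01, 11.76 and 13.24 CPM). Doxycycline and vehicle libraries did not overlap in either line, and the lowest vehicle library of EW8 was at the floor. PTGS2 rose 9.69-fold in EW8 (log2 3.24 ± 0.32, edgeR adjusted p = 1.4e-07) and 8.24-fold in TC71 (log2 3.03 ± 0.25, adjusted p = 9.2e-09). Without TC71 vehicle replicate 1, the lowest of its group, the TC71 change was 2.71 on the log2 scale (adjusted p = 1.2e-10). The responses of the lines differed by -0.21 ± 0.40 on the log2 scale (adjusted p = 0.803), and this value changed sign when single libraries were left out. The levels did differ: TC71 had 6.54-fold more PTGS2 than EW8 under vehicle (log2 2.68 ± 0.32, adjusted p = 9.1e-07) and 5.55-fold more under doxycycline (log2 2.47 ± 0.24, adjusted p = 5.24e-08). In the order of the groups, TC71 doxycycline stood above EW8 doxycycline with no overlap, EW8 doxycycline and TC71 vehicle overlapped, and EW8 vehicle was below both.

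PTGS1 (ENSG00000095303.15, chr9:122370530-122395703, plus strand), the constitutive cyclooxygenase, was barely detected. The EW8 vehicle libraries had 4, 6 and 30 counts and the EW8 doxycycline libraries 16, 6 and 12, or 0.253 ± 0.248 and 0.226 ± 0.0935 CPM. All 3 TC71 vehicle libraries had 0 counts, and the TC71 doxycycline libraries had 6, 6 and 10. In TC71 the doxycycline libraries were above vehicle and the test called PTGS1 higher (edgeR adjusted p = 0.00238), but 2 of the 3 doxycycline libraries were themselves at the floor, and against the floor the mean was at least 1.58-fold higher. In EW8 the ranges overlapped (log2 -0.18 ± 0.80, adjusted p = 0.887), and this sign was not stable. The difference between the lines' responses was called (adjusted p = 0.0152), but not without EW8 vehicle replicate 3, which had 30 counts (log2 4.99, adjusted p = 0.0626). Under vehicle TC71 was at least 2.32-fold lower than EW8 (adjusted p = 0.000581), a bound that rests on the same EW8 library since the other two were at or under the floor. Per kb of exon, mean levels of PTGS1 and PTGS2 were 0.0437 and 0.0459 CPM in EW8 vehicle, whereas in TC71 doxycycline they were 0.0297 and 2.47 CPM.

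PTGES (ENSG00000148344.10, chr9:129738331-129753047, minus strand), the inducible microsomal prostaglandin E synthase, differed widely between the lines. The EW8 vehicle libraries had 5.82, 5.75 and 5.28 CPM and the EW8 doxycycline libraries 32.5, 31.2 and 33.1 CPM. The TC71 vehicle libraries had only 8, 6 and 24 counts (0.153, 0.0966 and 0.466 CPM) and the TC71 doxycycline libraries 12, 8 and 26 counts (0.291, 0.191 and 0.592 CPM). The EW8 groups were far apart and tight, and the TC71 groups overlapped at a low level. PTGES rose 5.74-fold in EW8 (log2 2.52 ± 0.22, edgeR adjusted p = 2.43e-08). In TC71 the log2 fold change was 0.64 ± 0.46 (adjusted p = 0.282), and without TC71 vehicle replicate 3 it was 1.5 (adjusted p = 0.0111). The responses differed, TC71 minus EW8, by -1.88 ± 0.52 (adjusted p = 0.0159), which became -1.07 (adjusted p = 0.204) without that same library. The levels differed by 23.6-fold between the lines under vehicle (log2 -4.59 ± 0.32 in TC71 against EW8, adjusted p = 4.42e-10, and -5.46 without TC71 vehicle replicate 3) and by 90.2-fold under doxycycline (log2 -6.47 ± 0.30, adjusted p = 1.79e-12). PTGS2 and PTGES thus had opposite orders, with PTGS2 higher in TC71 and PTGES higher in EW8, each in both conditions.

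The other prostaglandin E synthases were abundant and moved little. PTGES2 (ENSG00000148334.14, chr9:128120693-128128462, minus strand), a membrane-associated enzyme, ranged from 84.1 to 90.8 CPM in EW8 vehicle, 81.1 to 87.8 in EW8 doxycycline, 74.6 to 79.7 in TC71 vehicle and 63.6 to 74.1 in TC71 doxycycline. Its log2 fold changes were -0.05 ± 0.06 in EW8 and -0.17 ± 0.07 in TC71 (edgeR adjusted p = 0.544 and 0.0389), neither past the fold limit, and the EW8 sign turned when single libraries were left out. PTGES3 (ENSG00000110958.15, chr12:56663341-56688408, minus strand), also known as the Hsp90 co-chaperone p23, had 955.6 ± 26.6 CPM in EW8 vehicle, 790.3 ± 35.0 in EW8 doxycycline, 699.6 ± 45.7 in TC71 vehicle and 594.9 ± 7.26 in TC71 doxycycline. The 4 groups did not overlap, and doxycycline libraries were below vehicle in both lines, by -0.27 ± 0.05 in EW8 (adjusted p = 0.000309) and -0.23 ± 0.05 in TC71 (adjusted p = 0.00121), both under the fold limit. Reads that fit several places were not counted, so its count excludes reads shared with its processed pseudogenes.

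PTGIS (ENSG00000124212.5, chr20:49503874-49568146, minus strand), the prostacyclin synthase of vessel walls, was above the floor in EW8 only. Its EW8 vehicle libraries had 66, 62 and 70 counts (1.49, 1.35 and 1.26 CPM), the EW8 doxycycline libraries 116, 102 and 91 counts (2.08, 2.02 and 2.08 CPM), the TC71 vehicle libraries 0 counts each and the TC71 doxycycline libraries 2, 0 and 0. The EW8 groups did not overlap, but the ratio of 1.51 was not called (log2 0.59 ± 0.39, edgeR adjusted p = 0.252). TC71 was at the floor in both conditions, at least 12.5-fold below EW8 under vehicle (adjusted p = 9.86e-08) and at least 14.5-fold below it under doxycycline (adjusted p = 1.44e-07). Of 5 endothelial markers, 4 were above the floor in EW8 vehicle and 5 in EW8 doxycycline, and their summed level went from 7.54 to 8.98 CPM to between 46.8 and 52.9 CPM, most of it PECAM1. In TC71 the sum went from 1.95 to 2.77 CPM (1 marker above the floor) to between 10.3 and 12.6 CPM (4 markers). Not every marker moved: CDH5 ranged from 0.359 to 1.83 CPM in EW8 vehicle and from 0.320 to 0.909 CPM in EW8 doxycycline, and TEK stayed at the floor in TC71. The summed level moved with doxycycline in the same libraries as PTGS2, PTGES and PTGER2 in EW8, and as PTGS2 and PTGER2 in TC71. The part of the markers in those results was not tested.

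**Figure D2:**
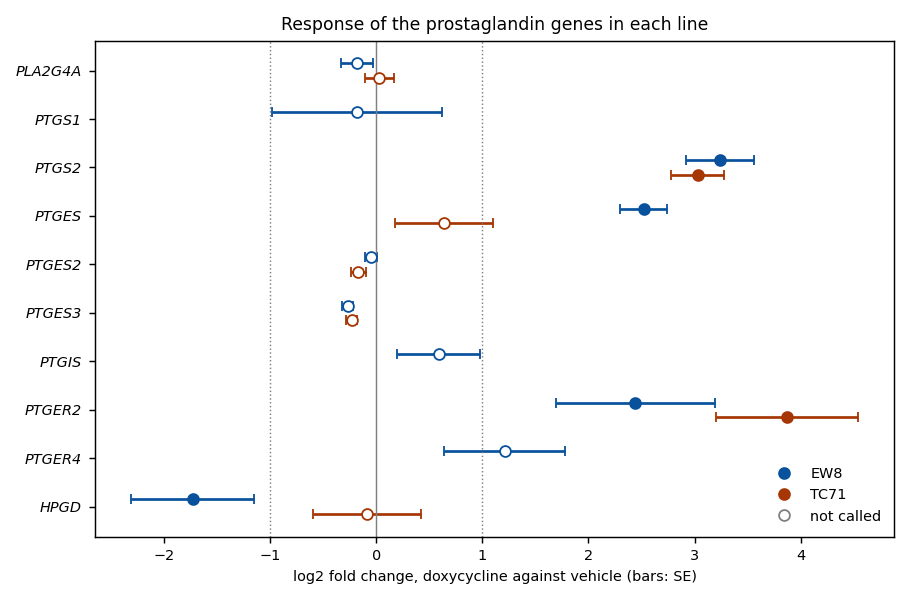
Log2 fold change of each gene, doxycycline against vehicle, with bars for the SE, in EW8 and TC71; filled points are called and dotted lines mark the fold limit of 1. PTGS2 and PTGER2 are filled in both lines, PTGES and HPGD in EW8, and TC71 points for PTGS1, PTGIS and PTGER4 are left out because a group was at the floor.

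The receptors came next. PTGER2 (ENSG00000125384.6, chr14:52314305-52328606, plus strand), which encodes EP2, had 2, 0 and 10 counts in the EW8 vehicle libraries and 26, 32 and 10 in the EW8 doxycycline libraries. The TC71 vehicle libraries had 2, 14 and 10 counts (0.0382, 0.226 and 0.194 CPM) and the TC71 doxycycline libraries 106, 68 and 118 counts (2.57, 1.63 and 2.69 CPM). The TC71 groups were well apart, while EW8 vehicle replicate 3 and EW8 doxycycline replicate 3 had the same count of 10 and differed only through depth. PTGER2 rose 15-fold in TC71 (log2 3.87 ± 0.67, edgeR adjusted p = 0.000101) and 5.90-fold in EW8 (log2 2.44 ± 0.75, adjusted p = 0.0125). The EW8 call was lost without EW8 doxycycline replicate 2 (log2 2.15, adjusted p = 0.0521) and the change was 4.21 without EW8 vehicle replicate 3. The responses differed by 1.43 ± 1.05 (adjusted p = 0.405), a value whose sign depended on single libraries. Under doxycycline TC71 had 5.19-fold more than EW8 (log2 2.36 ± 0.61, adjusted p = 0.00239), and under vehicle the ranges overlapped (log2 0.93 ± 0.81, adjusted p = 0.335). Without EW8 vehicle replicate 3 the vehicle difference was 2.70 (adjusted p = 0.0402) and was called. Its neighbour PTGDR, a prostaglandin D2 receptor 37.6 kb away, had 0 counts in all 12 libraries.

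PTGER4 (ENSG00000171522.5, chr5:40679498-40693735, plus strand), which encodes EP4, was higher in EW8 than in TC71 in both conditions. The EW8 vehicle libraries had 26, 62 and 44 counts (0.586, 1.35 and 0.790 CPM), the EW8 doxycycline libraries 86, 136 and 92 counts (1.54, 2.69 and 2.10 CPM), the TC71 vehicle libraries 6, 0 and 0 counts and the TC71 doxycycline libraries 4, 2 and 0. The EW8 doxycycline libraries all lay above the EW8 vehicle libraries, with a ratio of 2.32, and the gene was not called (log2 1.21 ± 0.57, edgeR adjusted p = 0.0988). It was called without TC71 vehicle replicate 1, which enters the shared spread (log2 1.26, adjusted p = 0.0213), in EW8 fitted on its own (log2 1.26, adjusted p = 0.00221), with no filter on low counts (log2 1.20, adjusted p = 0.0365) and with counts halved to read pairs (log2 1.26, adjusted p = 0.0223), 4 of 20 alternatives in all. Both TC71 groups were at the floor, at least 8.33-fold below EW8 under vehicle (adjusted p = 8.44e-05) and at least 14.9-fold below it under doxycycline (adjusted p = 1.09e-05). So of the cyclic AMP-coupled receptors among the members, PTGER4 was above the floor in EW8 alone. PTGER2 was highest in TC71 with doxycycline, was also called higher with doxycycline in EW8, and overlapped between the lines under vehicle.

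HPGD (ENSG00000164120.13, chr4:174490177-174523154, minus strand), the 15-hydroxyprostaglandin dehydrogenase that inactivates prostaglandin E2, had 48, 20 and 62 counts in the EW8 vehicle libraries (1.08, 0.436 and 1.11 CPM) and 2, 14 and 22 in the EW8 doxycycline libraries (0.0358, 0.277 and 0.502 CPM). The TC71 vehicle libraries had 1.34, 0.966 and 1.67 CPM and the TC71 doxycycline libraries 0.970, 1.53 and 1.23 CPM. The EW8 groups overlapped, since the highest doxycycline library was above the lowest vehicle library, and the TC71 groups lay on top of each other. HPGD fell to 0.310 of its vehicle level in EW8 (log2 -1.73 ± 0.58, edgeR adjusted p = 0.0216). The call was lost without EW8 vehicle replicate 1 (log2 -1.56), EW8 vehicle replicate 3 (-1.47), EW8 doxycycline replicate 1 (-1.13) or EW8 doxycycline replicate 2 (-1.72), with adjusted p of 0.0633 to 0.095, and the change was -2.46 without EW8 doxycycline replicate 3. In TC71 the log2 fold change was -0.09 ± 0.51 (adjusted p = 0.923), and the responses of the lines differed by 1.64 ± 0.77, which did not pass (adjusted p = 0.161). Under doxycycline HPGD was 4.57-fold higher in TC71 than in EW8 (log2 2.23 ± 0.58, adjusted p = 0.00267), or 2.93 on the log2 scale without EW8 doxycycline replicate 3.

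Between the lines under vehicle, 2 members were called higher in TC71 (PTGS2, PLA2G4A), beside 11.6% of all genes tested, and 4 lower (PTGS1, PTGES, PTGER4, PTGIS), beside 18.9% (30.6% in either direction). Under doxycycline 4 were called higher (PTGS2, PTGER2, HPGD, PLA2G4A), beside 12.6%, and 3 lower (PTGES, PTGER4, PTGIS), beside 18.4% (31.0% in either direction). These comparisons share their libraries with those of doxycycline against vehicle. Scaled to exon length, the members spread over several orders of magnitude, and PTGES3 was first and PTGES2 next in all 4 groups, at 281.2 and 28.99 CPM per kb in EW8 vehicle. After them came PTGES and PLA2G4A in EW8, with PTGES at 17.02 CPM per kb under doxycycline, and PLA2G4A and PTGS2 in TC71, at 8.01 and 2.47 CPM per kb under doxycycline. PTGES was at 0.189 CPM per kb in TC71 doxycycline, below HPGD at 0.225, and in EW8 doxycycline PTGS2 was at 0.445, close to PTGER4 at 0.533.

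**Figure D3:**
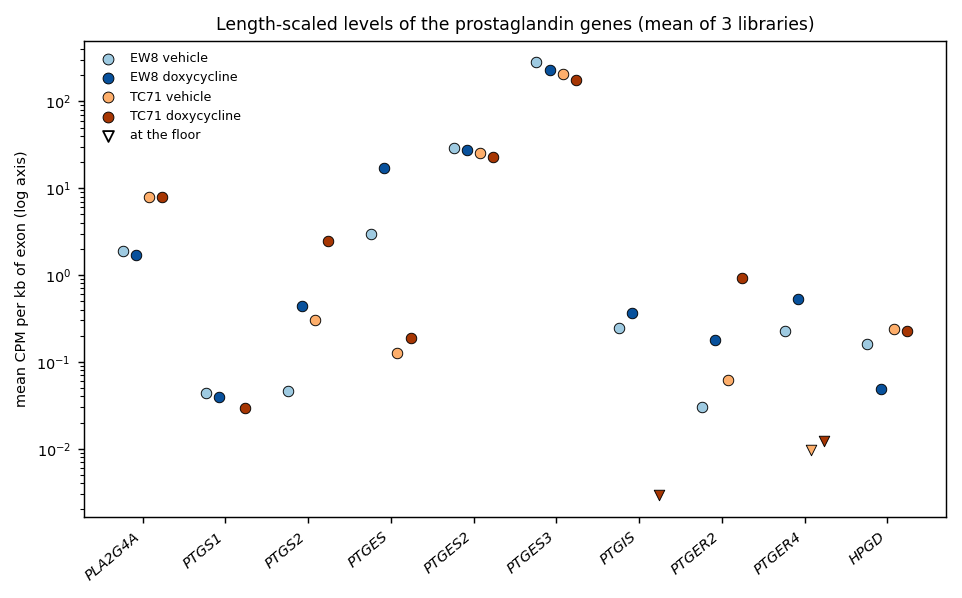
Mean CPM per kb of exon of each gene in the 4 groups, on a log axis, with triangles for groups at the floor and no point where the mean was 0. PTGES3 was above the others in every group, PTGES and PTGER4 were higher in EW8, and PLA2G4A and PTGS2 were higher in TC71.

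The wider eicosanoid pathway was described with 5 lists of 46 further genes, of which 36 were tested. In EW8 8 of the 36 were called higher and 2 lower, beside 11.4% and 3.38% of all genes tested, and in TC71 7 higher and 2 lower, beside 12.3% and 3.67%. The medians were 0.05 over 34 genes in EW8 and 0.08 over 33 in TC71, after bounding or leaving out genes at the floor, against -0.031 and 0.0 over all genes. Among the other terminal synthases, 1 of 6 was called in each line, in both cases higher, beside 11.4% and 12.3%. This was TBXAS1, the thromboxane synthase: its EW8 libraries went from 0.632, 1.55 and 0.647 to 3.76, 4.68 and 3.75 CPM, and its TC71 libraries from 0.267, 0.306 and 0.349 to 5.14, 4.54 and 5.92 CPM. It rose by 2.11 ± 0.30 in EW8 (edgeR adjusted p = 1.28e-05) and 4.07 ± 0.34 in TC71 (adjusted p = 1.11e-08) on the log2 scale. Of 5 platelet markers, PF4, PPBP and GP9 were at the floor in all 12 libraries, and GP1BA and TUBB1 were above it in every group. Their sum was 0.862 to 1.35 CPM in EW8 vehicle and 0.593 to 0.770 in EW8 doxycycline, 0.679 to 0.886 in TC71 vehicle and 0.842 to 0.908 in TC71 doxycycline. The leukocyte marker TYROBP was at the floor in all 12. The summed 8 leukocyte markers went from 60.9 to 70.3 CPM to between 78.3 and 82.4 CPM in EW8, nearly all PTPRC, and from 0.446 to 0.859 CPM to between 2.04 and 2.53 CPM in TC71, and the part of both lists in the result was not tested.

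Of the 6 other receptors tested, 1 was called higher in each line, beside 11.4% of all genes in EW8 and 12.3% in TC71, and the other 5 were not called. PTGIR, the prostacyclin receptor, had 8, 16 and 12 counts in EW8 vehicle and 71, 50 and 34 in EW8 doxycycline (log2 2.02 ± 0.76, edgeR adjusted p = 0.0379), and PTGER1, which encodes EP1, had 0, 1 and 7 in TC71 vehicle and 10, 13 and 10 in TC71 doxycycline (log2 2.34 ± 0.84, adjusted p = 0.0298). Both calls were held in 13 of 20 alternative fits. PTGIR lost its call when any EW8 library was left out (log2 1.84 to 2.34, adjusted p up to 0.141). PTGER1 changed by 1.72 to 4.51 when libraries were left out in turn (adjusted p up to 0.112) and lost its call without any 1 of 6 libraries, namely TC71 vehicle replicates 1 and 2, TC71 doxycycline replicates 1 and 2, and EW8 doxycycline replicates 1 and 2. PTGER3, named after its values were seen, encodes EP3 and was the prostaglandin E2 receptor with the most reads, at 88.0 ± 2.10 and 87.5 ± 7.75 CPM in EW8 vehicle and doxycycline, and 202.8 ± 16.5 and 359.1 ± 6.18 CPM in TC71. Its TC71 change of 0.82 ± 0.07 (adjusted p = 7.15e-09) was below the fold limit.

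Among 5 genes of transport and further breakdown, 1 was called higher and 1 lower in EW8, beside 11.4% and 3.38% of all genes tested. PTGR1, another prostaglandin reductase, named after its values were seen, lay just under the fold limit in EW8 (1.24 ± 0.336 to 2.50 ± 0.319 CPM, log2 0.99 ± 0.18, edgeR adjusted p = 0.000234) and was called in 11 of 20 alternatives, DESeq2 among them. In TC71 the edgeR fit called 0 of the 5, of which 3 had an unadjusted p under 0.05, and DESeq2 also called 0, while PTGR2 (log2 -1.10 ± 0.51, adjusted p = 0.0893) was called with TC71 fitted on its own and with halved counts, and SLCO2A1, at the floor in both TC71 groups, was called with no filter on low counts. SLCO2A1, the prostaglandin uptake transporter, had 8, 0 and 0 counts in EW8 vehicle and 52, 20 and 12 in EW8 doxycycline (log2 3.17 ± 1.17, edgeR adjusted p = 0.0374), a call held in 11 of 19 alternatives and lost in DESeq2. It was also lost without EW8 vehicle replicate 2 or 3, without any EW8 doxycycline library, and without TC71 doxycycline replicate 1 or 3, and with 1 library left out the change ranged from 2.53 to 7.74 (adjusted p up to 0.188). PTGR2, a prostaglandin reductase, fell in EW8, from 22, 10 and 45 counts to 7, 7 and 1 (log2 -2.35 ± 0.61, adjusted p = 0.00415).

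Of 11 tested genes of arachidonate release and its restraint, 4 were called higher in each line, beside 11.4% of all genes in EW8 and 12.3% in TC71. The other 7 were not called, some of them only because of the fold limit. In each line 8 of the 11 had an edgeR adjusted p under 0.05, 7 of them higher and 1 lower. PLA2G15, for example, went from 8.86 to 17.7 CPM in TC71 and was not called. MGLL, the monoacylglycerol lipase, rose the most among those with counts in both groups, from 0.992 to 30.1 CPM in EW8 (log2 4.94 ± 0.19, edgeR adjusted p = 3.2e-13) and from 0.447 to 26 CPM in TC71 (log2 5.86 ± 0.21, adjusted p = 8.41e-14). ANXA1, annexin A1, which is known to restrain phospholipase A2, rose by 2.19 ± 0.07 in EW8, to 851.1 CPM, and by 1.57 ± 0.06 in TC71, to 716.1 CPM. PLA2G4C, a relative of PLA2G4A, rose in EW8 (16, 10 and 5 counts to 125, 136 and 142, log2 3.62 ± 0.49, adjusted p = 7.43e-06) and was at 1.26 ± 0.54 in TC71 (adjusted p = 0.0635). PLAAT3 rose in TC71 (log2 1.96 ± 0.39, adjusted p = 0.000554), and its EW8 call came from groups that were both at the floor, for which no fold is given. ACSL4, which loads arachidonate onto coenzyme A, rose in TC71 (log2 1.10 ± 0.07, adjusted p = 3.11e-10) but was at 0.94, under the fold limit, without TC71 vehicle replicate 1.

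In the lipoxygenase branch, 8 of 13 genes were tested, 1 was called higher in each line, 1 lower in EW8 and 2 lower in TC71, beside 11.4% higher and 3.38% lower of all genes in EW8 and 12.3% and 3.67% in TC71. ALOX5AP, the 5-lipoxygenase activating protein, had 4, 6 and 8 counts in EW8 vehicle and 168, 159 and 90 in EW8 doxycycline (log2 4.45 ± 0.39, edgeR adjusted p = 1.01e-07), and 0 counts in each TC71 vehicle library against 86, 85 and 101 in TC71 doxycycline, at least 19.6-fold higher (adjusted p = 4.75e-09). CYSLTR2, a receptor for cysteinyl leukotrienes, fell from 24.4 to 10.9 CPM in EW8 (log2 -1.17 ± 0.17, adjusted p = 1.44e-05) and was at least 3.07-fold lower with doxycycline in TC71, where the doxycycline libraries were at the floor. CYSLTR1, its relative, fell from 1.75 to 0.255 CPM in TC71 (log2 -2.78 ± 0.41, adjusted p = 2.04e-05) and was at -0.17 ± 0.35 in EW8. The gene for 5-lipoxygenase itself, ALOX5, was too low to be tested.

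**Figure D4:**
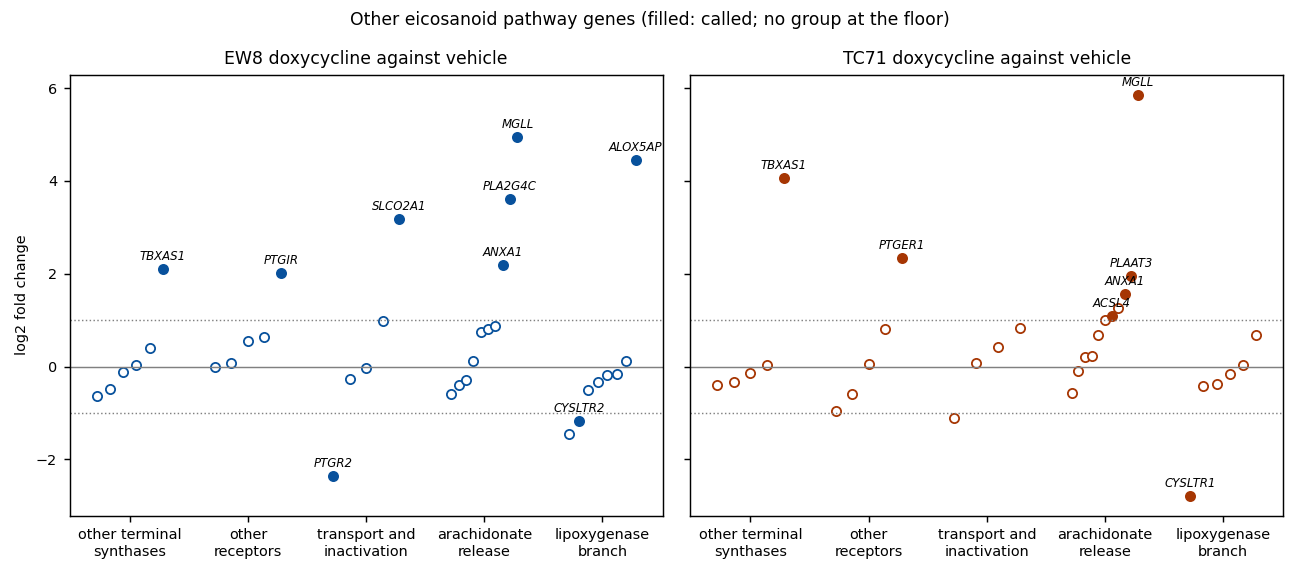
Log2 fold change, doxycycline against vehicle, of the other eicosanoid genes by list in EW8 and TC71, with filled and named points for called genes and dotted lines at the fold limit of 1; genes with a group at the floor are left out. TBXAS1, MGLL and ANXA1 are filled in both lines. PTGIR, SLCO2A1, PTGR2, PLA2G4C, ALOX5AP and CYSLTR2 are filled in EW8 only, and PTGER1, PLAAT3, ACSL4 and CYSLTR1 in TC71 only.

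The 5 protein-coding genes whose pattern over the 12 libraries was most like that of PTGS2 were LRP10, CORO2B, EHD2, ATP9A and TSPAN10. Likeness was the root mean square difference of log2(CPM + 0.5), each gene centred on its own mean, and was 0.244, 0.265, 0.268, 0.293 and 0.35, against a median of 1.572 over 14879 genes. CORO2B, for example, had mean levels of 0.396, 2.80, 1.87 and 13.9 CPM in EW8 vehicle, EW8 doxycycline, TC71 vehicle and TC71 doxycycline, where PTGS2 had 0.242, 2.34, 1.58 and 13 CPM. LRP10, the most alike, had 10.8, 54.2, 32.0 and 181.1 CPM in the same order. Centring takes out the level, and the added 0.5 is above the mean of PTGS2 in EW8 vehicle, which shrinks its change there. Likeness by this measure is therefore not likeness of level or of fold. None of the other 9 members was among the 5.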

How the data were processed

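Polyadenylated RNA of 12 libraries was made into stranded libraries and sequenced. Per the submitters' notes and methods, the authors checked reads with FastQC, aligned them with STAR to GRCh38 (hg38) and counted them with featureCounts 2.0.1 on GENCODE release 29. The STAR version is not given in the sources used here. The deposited table held raw counts and, for each gene, its exon length in base pairs. Per the file headers, no option for read pairs, strand, multi-mapped or overlapping reads was set, so each mate counted as a read, strand was not used, and 67.3% to 69.8% of counts were even. Reads on exons shared between genes were left out, and none of the 10 members shared an exon base with another gene.

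Of 58721 genes, 58207 received a symbol through their identifier. The counts were fitted in edgeR 4.0.16 (R 4.3.3) with TMM scaling (factors 0.9452 to 1.0389), filterByExpr, 1 level per group and the quasi-likelihood test, over 21013 genes with 99.95% of the counts. The fit gave the response to doxycycline in EW8 and in TC71, how far these differed, and the contrast of TC71 with EW8 in either condition, with Benjamini-Hochberg adjustment over all genes tested. The script was tested on simulated data. SE was derived from the log2 fold change and its F value. The genes named were all members, JUN and FOS, pathway genes called in a doxycycline comparison and the 5 genes most like PTGS2, while PTGER3, PTGR1, PLA2G15, PTGDR and ALOX5 were named outside this rule, after their values were seen. Promoter sequences came from RefSeq. Members, lists and motifs were chosen with earlier results of these data known, and no list was tested as a set. Alternatives were other scaling factors, other low-count filters, DESeq2 1.42.0, a replicate block, each line alone, halved counts, and leaving out each library.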

Additional observations from a re-analysis of the deposited data

Results flagged for a closer look

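The responses to doxycycline differed between the lines for 2 of the 10 members, by the interaction term of the edgeR fit. The difference, TC71 minus EW8 on the log2 scale, was 6.29 for PTGS1 (adjusted p = 0.0152), where all TC71 vehicle libraries were at 0 counts and the size is not a bound, and -1.88 for PTGES (adjusted p = 0.0159). Both rest on single libraries: they were 4.99 (adjusted p = 0.0626) without EW8 vehicle replicate 3 and -1.07 (adjusted p = 0.204) without TC71 vehicle replicate 3. Among the other eicosanoid genes the difference was 1.96 for TBXAS1 (adjusted p = 0.00411), -2.36 for PLA2G4C (adjusted p = 0.0297) and -2.60 for CYSLTR1 (adjusted p = 0.002). It was 5.26 for ALOX5AP (adjusted p = 0.00231), whose TC71 vehicle libraries were all at 0, so this size is not a bound either. The EW8 vehicle libraries of ALOX5AP had only 4, 6 and 8 counts. Its doxycycline means were 2.74 CPM in EW8 and 2.14 CPM in TC71, and a larger rise in TC71 is not shown. The PLA2G4C call held in 13 of 19 alternatives and was lost without EW8 vehicle replicate 2 or 3, EW8 doxycycline replicate 2 or 3, TC71 vehicle replicate 2 or TC71 doxycycline replicate 1, with a range of -2.89 to -1.81 when 1 library was left out (adjusted p up to 0.147). The calls of TBXAS1, ALOX5AP and CYSLTR1 held in all 19, though that of ALOX5AP rests on the same 0 counts in each.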

How the results depend on the processing

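Over 20 alternatives, 834 of the log2 fold changes recomputed for the members kept their direction and side of the limits, 34 changed sign, 7 lost their call and 6 gained one. PTGS2 was called in every alternative in both lines. The difference of responses had 0 members called higher when a group needed 10 counts in each of its libraries, and with halved counts, since PTGS1 was then not tested. Among changes that were not called, PLA2G4A in TC71 was -0.0027 with DESeq2 size factors, -0.07 on library totals, -0.02 with the stricter filter, -0.0021 in DESeq2 and -0.02 with halved counts, and the PTGES3 difference was -0.06 with the stricter filter and with halved counts. The mean level of PTGES3 on library totals was 985.0 CPM in EW8 vehicle and 569.3 in TC71 doxycycline. The cause of these shifts was not tested. Leaving out 1 library at a time, members called lower in EW8 ranged from 0 to 1, and so did members with a higher and with a lower response in TC71. Members called higher changed too. In EW8, PTGER2 lost its call without EW8 doxycycline replicate 2, and PTGER4 gained one without TC71 vehicle replicate 1. In TC71, PTGES gained one without TC71 vehicle replicate 3. For TC71 against EW8 under vehicle, PTGER2 gained one without EW8 vehicle replicate 3. Uncalled changes ranged from -0.57 to 1.05 for PTGS1, -0.28 to 0.01 for PLA2G4A and -0.09 to 0.02 for PTGES2 in EW8, from -0.27 to 0.07 for HPGD and -0.05 to 0.09 for PLA2G4A in TC71, and for the difference from -0.04 to 0.31 for PLA2G4A, -0.40 to 1.96 for PTGER2, -0.09 to 0.06 for PTGES3 and -0.60 to 0.08 for PTGS2.

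Same-numbered vehicle and doxycycline libraries did not deviate together (correlations of -0.059 to 0.047), so the numbers were not taken as pairs. With the replicate block, 3018 genes were called in EW8 and 3236 in TC71, against 3112 and 3355, member counts were unchanged in the 5 comparisons, PTGS1 in EW8 was 0.07, and of the pathway genes PTGIR in EW8 lost its call while PTGR1 in EW8 and PLA2G15 in TC71 gained one.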
